A study of Mus musculus with 24 samples.

Results

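The 40 genes described here encode complement and coagulation factors and the inhibitors and fibrinolytic proteins that act beside them, together with Ahsg, which encodes the plasma glycoprotein fetuin-A. They were taken from a list of gene symbols with no threshold on a measured value, although the list was drawn up with earlier results of these data known. Of the 40 members, 38 had at least 1 feature in the tables and 2, C2 and Ahsg, had none. The tables held 48968 genes in all, of which 6423 had a mean of at least 1 FPKM over the 4 groups, and 25 of the members were among these. FPKM are fragments scaled to transcript length and to the mapped fragments of a library. A level given here is that of 1 assembled feature and not the total of a gene, so an order of genes by level is an order of features.

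Complement and coagulation are proteolytic cascades of blood plasma in which each activated protease cleaves the next zymogen. Hepatocytes secrete most of their components. In complement, the C1 complex or the mannose-binding lectins with their proteases cleave C4 and C2, the resulting convertases cleave C3, and the terminal components C5 to C9 assemble into the pore of the membrane attack complex. In coagulation, vitamin K-dependent proteases and their cofactors generate thrombin, which turns fibrinogen into fibrin, while antithrombin, heparin cofactor II and the protein C system restrain it and plasmin dissolves the clot.

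Livers of male wt C57BL/6 mice (C57BL/6N by the study's methods) aged 18 weeks were profiled by total RNA-Seq after 12 weeks of injections with a locked nucleic acid antisense oligonucleotide (LNA), and all mice compared here had received one. The Scr LNA NCD and Scr LNA HFD groups received the control LNA on a normal diet (NCD, 11 kJ% fat) or a high-fat diet (HFD, 54 kJ% fat), the Mafg LNA HFD group an LNA against the transcription factor Mafg, and the LincIRS2 LNA NCD group an LNA against the long noncoding RNA 4833411C07Rik. Each group held 4 livers that were pooled into 1 value, and the p and q values deposited with the tables were not used, so that no spread between livers, no interval and no test is given for any value below. The study's methods state a higher age and a longer treatment than the labels, and that mice were randomly given saline or insulin before the tissue was taken, which the labels do not resolve per liver. The LNAs reach the liver through the circulation and are not restricted to hepatocytes. Of the 24 livers of the series, the 8 that received Mafg LNA on NCD or LincIRS2 LNA on HFD were not analysed here.

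The 3 oligonucleotides are shown because they define the groups and because a match in a member would bear on its value. All letters are in lower case, 5′ to 3′, from the study's oligonucleotide list.
Scr LNA: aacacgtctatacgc
Mafg LNA: gtcttggactttacta
LincIRS2 LNA: ctcgattaacctgata
The reverse complement of the Mafg LNA occurred without a mismatch in 4 annotated mouse transcripts, which all belonged to Mafg, and that of the LincIRS2 LNA in 2, which both belonged to 4833411C07Rik. The Scr LNA matched 0 of the 141767 transcripts searched. No member held a perfect site, and the longest stretch complementary to a member was 10 bases for the Mafg LNA (F5), 9 bases for the Scr LNA (F2) and 9 bases for the LincIRS2 LNA (Pros1).

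The targeted transcript 4833411C07Rik was listed at 0.558 FPKM in Scr LNA NCD and at 0.345 FPKM in LincIRS2 LNA NCD, a log2 ratio of -0.56, and both values lie under the filter. No feature carried the symbol Mafg, so the knockdown of Mafg was not analysed here. Features without an Ensembl match made up 90.4% of the summed FPKM in both Scr LNA groups. Their share was 92.3% in LincIRS2 LNA NCD and 93.6% in Mafg LNA HFD, and the part of this difference in the ratios was not tested. Of the 14 hepatocyte markers, 11 passed the filter, yet Alb, the albumin gene, was listed at 0 in 3 groups and at 2660 FPKM in LincIRS2 LNA NCD, and Ttr, the transthyretin gene, was under 0.05 FPKM in every group. A low value of a feature can therefore be a failed estimate, and the 13 members under the filter cannot be read as weakly expressed genes. The same caution holds for members just past the filter, such as Hc (mean 1.22 FPKM) and Plg (mean 1.26 FPKM), and for their ratios.

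Ratios are given as the log2 of (FPKM + 0.1) over (FPKM + 0.1), which understates differences of low genes, and a member is counted as higher or lower when its ratio passed 1.5-fold in size (0.58 on the log2 scale). The counts describe these pooled values and are read beside the share of all 6423 genes that passed the same fold. Since the members past the filter were kept by their mean level, their counts and medians are a description only. The diet and Mafg comparisons share the Scr LNA HFD group, and the diet and LincIRS2 comparisons share the Scr LNA NCD group, so a value that is unusual in a shared group enters both.

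Levels of the 25 members spanned from Serpind1, which encodes heparin cofactor II, at a mean of 203 FPKM to Hc, which encodes complement C5, at 1.22 FPKM. The 12 members of highest mean were Serpind1, F12, Serping1, C1ra, C3, C4b, Proc, Masp2, Mbl2, Cfb, C6 and F11, the last at 16.8 FPKM. The highest group stood at a median of 1.42 times the lowest over the 25 members, beside 1.29 times over all genes past the filter. For 8 members it stood under 1.3 times, a bound just above the median of all genes. For 10 (40%) it stood at 1.5 times or more, beside 26.7% of all genes. Serping1, the C1 inhibitor gene, had the narrowest range with 79.3 and 83.1 FPKM on NCD and HFD under Scr LNA, 83.5 under Mafg LNA and 84.3 under LincIRS2 LNA. Where 4 values stand together below, they keep this order of groups. Hc had the widest, with its highest group at 6.3 times its lowest. The Mafg LNA HFD group was the lowest of the 4 groups for 15 of the 25 members (60%), beside 42.5% of all genes past the filter, and the highest for 1, Pros1, beside 21.3% of all genes.

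**Figure D1:**
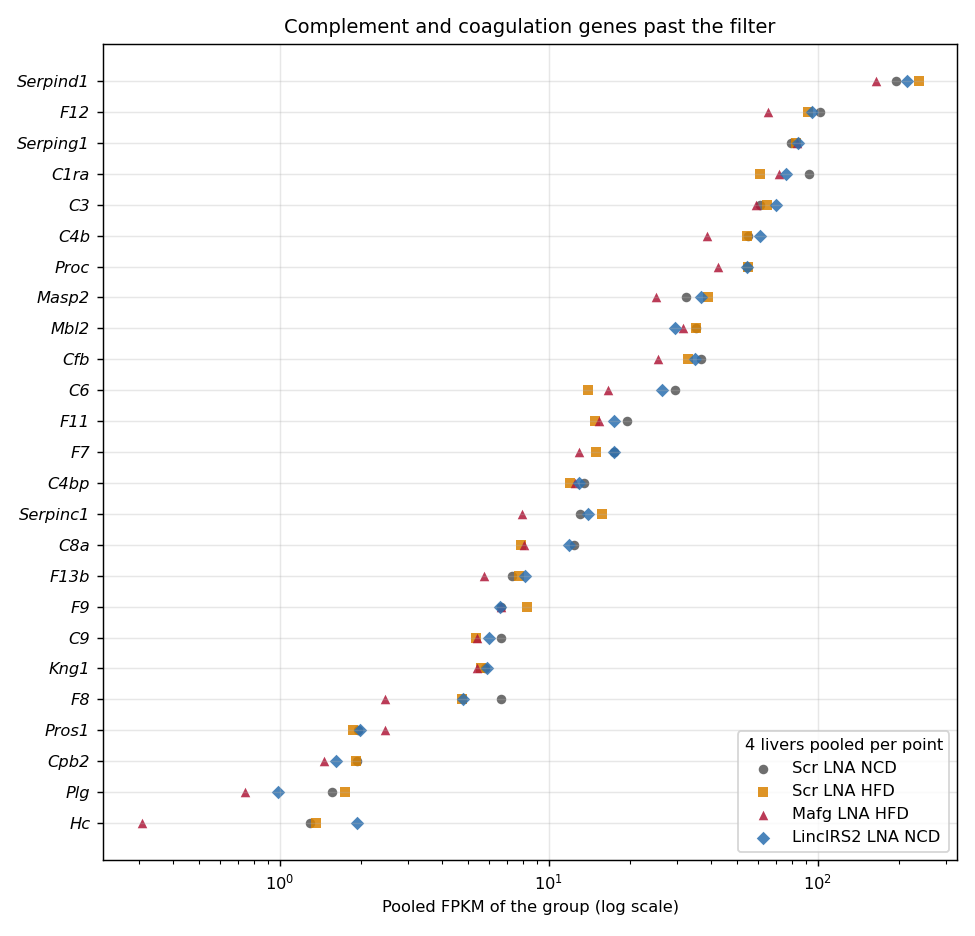
Pooled FPKM (log axis) of the 25 members past the filter, ordered by mean, with 1 point per group of 4 livers. The Mafg LNA HFD triangle stands to the left of the other groups for 15 members, farthest for Hc, and the Scr LNA HFD square stands to the left for C6.

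On HFD under Scr LNA, the terminal complement genes C6 and C8a and the C1r gene C1ra were listed lower than on NCD, and no member was higher past 1.5-fold. These were 3 of 25 members (12%), while 4.69% of all genes were lower and 4.95% higher. The median log2 ratio of the members was -0.02 and that of all genes 0.02. The members' ratios ran from -1.07 for C6 to 0.31 for F9, and 15 of the 25 lay within 0.25 of 0. The quartiles of all genes, -0.15 and 0.19, lay in that band too, so the count does not set the members apart.

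C6 (chr15:4727175-4814967, plus strand, GRCm38) encodes the component that binds C5b and starts the assembly of the membrane attack complex. It was listed at 29.5 FPKM on NCD and 14.0 on HFD under Scr LNA, at 16.6 under Mafg LNA on HFD and at 26.3 under LincIRS2 LNA on NCD. Both HFD groups were low and both NCD groups high, and the log2 ratio of diet was -1.07. The other 2 features of C6, at lower levels, had diet ratios of -1.02 and -0.83.

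C8a (chr4:104815679-104876398, minus strand) encodes the alpha chain of C8, which inserts into the target membrane. Its values were 12.4, 7.88, 8.10 and 11.9 FPKM in the 4 groups, a diet ratio of -0.65, so that again both HFD groups lay below both NCD groups. C9 (chr15:6445327-6498751, plus strand), which polymerises into the pore, was at 6.64, 5.35, 5.41 and 5.98 FPKM, a ratio of -0.31 that did not pass the fold. Hc was at 1.29 FPKM on NCD and 1.36 on HFD, a ratio of 0.07. Within the terminal group the median diet ratio was -0.48 over the 4 members that passed the filter, and C8b and C8g, which encode the other chains of C8, did not pass it.

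C1ra (chr6:124512405-124523443, plus strand) encodes the C1r protease, which activates C1s in the C1 complex. It was listed at 92.7 FPKM on NCD and 60.7 on HFD under Scr LNA, at 71.8 under Mafg LNA and at 75.9 under LincIRS2 LNA, so Scr LNA NCD was above the other 3 groups. The diet ratio was -0.61, just past the fold. A second, lower feature of C1ra on the gene's own strand gave -0.62. C1rb, a closely related copy of the gene, was at 212 and 220 FPKM on NCD and HFD, a ratio of 0.05, and reads from the 2 copies could have been divided between them. C1s1, next to C1ra, missed the filter with a mean of 0.933 FPKM and was listed at 2.83, 0.00908, 0.395 and 0.499 FPKM. C1s1 and C1rb were named after their values were seen.

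The remaining diet values were small. F8, the antihemophilic cofactor, had a ratio of -0.47 (6.66 to 4.77 FPKM) and F11, the contact-phase factor XI, one of -0.39, with 19.5, 14.8, 15.4 and 17.4 FPKM in the 4 groups. F9, factor IX, stood at 0.31, with 6.65, 8.28, 6.64 and 6.57 FPKM and Scr LNA HFD alone high. Serpind1 stood at 0.28 (195 to 237 FPKM) and Masp2, the lectin-pathway protease that cleaves C4 and C2, at 0.27 (32.3 to 38.9 FPKM). C3, on which all complement pathways converge, was at 60.7, 64.7, 58.7 and 69.8 FPKM in the 4 groups, with LincIRS2 LNA NCD highest. Proc, which encodes protein C, was at 54.4, 54.8, 42.5 and 54.7 FPKM, and only its Mafg value stood apart. Mbl2, a mannose-binding lectin, was at 35.2, 35.3, 31.6 and 29.5 FPKM.

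**Figure D2:**
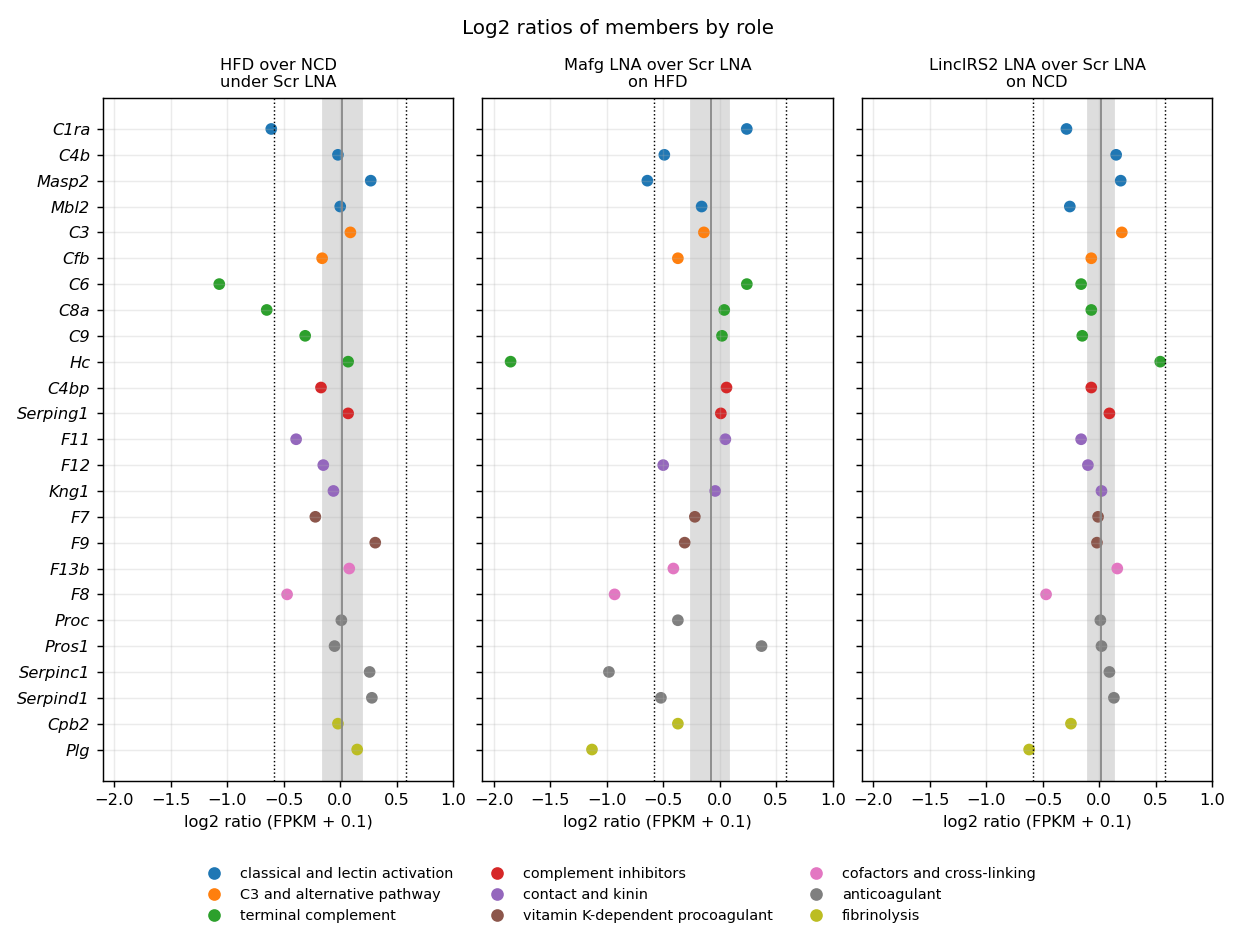
Log2 ratios of the 25 members (rows, coloured by role) in the 3 comparisons. Dotted lines mark 1.5-fold, the grey line the median of all 6423 genes and the grey band their middle 50%. C6, C8a and C1ra lie past the left dotted line with diet, Hc, Plg, Serpinc1, F8 and Masp2 with Mafg LNA, and Plg with LincIRS2 LNA.

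With Mafg LNA on HFD, genes of antithrombin, plasminogen, factor VIII, C5 and MASP-2 were listed lower than with Scr LNA. Hc, Plg, Serpinc1, F8 and Masp2 were lower past the fold, 5 of 25 members (20%), against 6.46% of all genes, and no member was higher, against 4.84%. The median log2 ratio was -0.31 for the members and -0.08 for all genes. Centred on that median, 5.82% of all genes were higher and 5.15% lower, and 4 members were lower, with Masp2 at -0.56 no longer past the fold. Of the 13 coagulation and fibrinolysis members past the filter, 11 had a ratio below 0, with a median of -0.37, and of the 12 complement members 6 did, with a median of -0.07. Together 68% of the members lay below 0, close to the 63.7% of all genes, and the difference between the 2 sets was not tested. The median ratio of all genes was also lower at higher levels in this comparison. At means of 20 FPKM and above the median was -0.20 for 455 genes and -0.37 for the 11 members among them, from 5 to 20 FPKM -0.13 for 1255 genes and -0.04 for 9 members, and from 1 to 5 FPKM -0.05 for 4713 genes and -0.93 for 5 members. With a filter of 5 FPKM, 2 of 20 members were lower, beside 8.48% of 1710 genes, so 3 of the 5 lower members came from the low end of the range.

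Hc (chr2:34983331-35061438, minus strand) encodes C5, which is cleaved to the anaphylatoxin C5a and to C5b. It was listed at 1.36 FPKM in Scr LNA HFD and 0.306 in Mafg LNA HFD, with 1.29 in Scr LNA NCD and 1.93 in LincIRS2 LNA NCD. Only the Mafg group lay under 1 FPKM, and the log2 ratio was -1.85. The pseudocount weighed on it, since the ratio was -2.15 with none and -0.85 with 1 FPKM.

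Plg (chr17:12378609-12419384, plus strand) encodes plasminogen, the precursor of plasmin. Its values were 1.56 FPKM on NCD and 1.74 on HFD under Scr LNA, 0.742 under Mafg LNA and 0.980 under LincIRS2 LNA, so both groups that received a targeting LNA were lower than both Scr groups. The ratios were -1.13 with Mafg LNA and -0.62 with LincIRS2 LNA. Cpb2, which encodes an inhibitor of fibrinolysis, was at 1.91 and 1.46 FPKM in Scr LNA HFD and Mafg LNA HFD, a ratio of -0.37.

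Serpinc1 (chr1:160978585-161005863, plus strand) encodes antithrombin, the main plasma inhibitor of thrombin and factor Xa. It was at 13.1 FPKM on NCD and 15.8 on HFD under Scr LNA, at 7.96 under Mafg LNA and at 14.0 under LincIRS2 LNA. The Mafg group was below the other 3, which lay close together, and the ratio was -0.98. Serpind1 (chr16:17331371-17343572, plus strand) had the same order of groups, with 195, 237, 165 and 214 FPKM, and a ratio of -0.52, short of the fold. Its 3 features, which lie on both strands, gave -0.52, -0.49 and -0.53. In the protein C system, Proc was at 54.8 and 42.5 FPKM (-0.37), while Pros1, which encodes the cofactor protein S, was at 1.87 and 2.45 FPKM (0.37), the highest ratio of a member in this comparison.

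F8 (chrX:75172715-75382615, minus strand) encodes the cofactor of factor IXa and is made mainly by endothelial cells. It was listed at 6.66, 4.77, 2.45 and 4.79 FPKM, a Mafg ratio of -0.93. Its only feature lay on the strand opposite to the gene. F13b, the carrier subunit of the cross-linking factor XIII, was at 7.71 and 5.76 FPKM (-0.41). F12, the contact factor XII, was at 102, 91.7, 65 and 95 FPKM (-0.50), lowest with Mafg LNA. F9 was at 8.28 and 6.64 (-0.31) and F7, factor VII, at 15.0 and 12.9 (-0.22). Kng1, which encodes kininogen, was at 5.58 and 5.42 FPKM (-0.04) by its main feature, on the opposite strand. Its lower, own-strand features gave -0.36 and -0.92.

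Masp2 (chr4:148602554-148615499, plus strand) was at 32.3, 38.9, 25 and 36.8 FPKM, a Mafg ratio of -0.64. C4b, which encodes C4, was at 55.1, 54.3, 38.6 and 61 FPKM (-0.49), and Cfb, the protease zymogen of the alternative pathway, at 36.8, 32.9, 25.5 and 35 FPKM (-0.37). In all 3 genes the Mafg group was the lowest. The C4 genes are a near-identical pair, and the value of C4b is uncertain for that reason. By contrast C6 (0.24) and C1ra (0.24) stood slightly higher, and C8a (0.04), C9 (0.02), C4bp, which encodes an inhibitor of C4b (0.06), and Serping1 (0.01) were near 0.

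**Figure D3:**
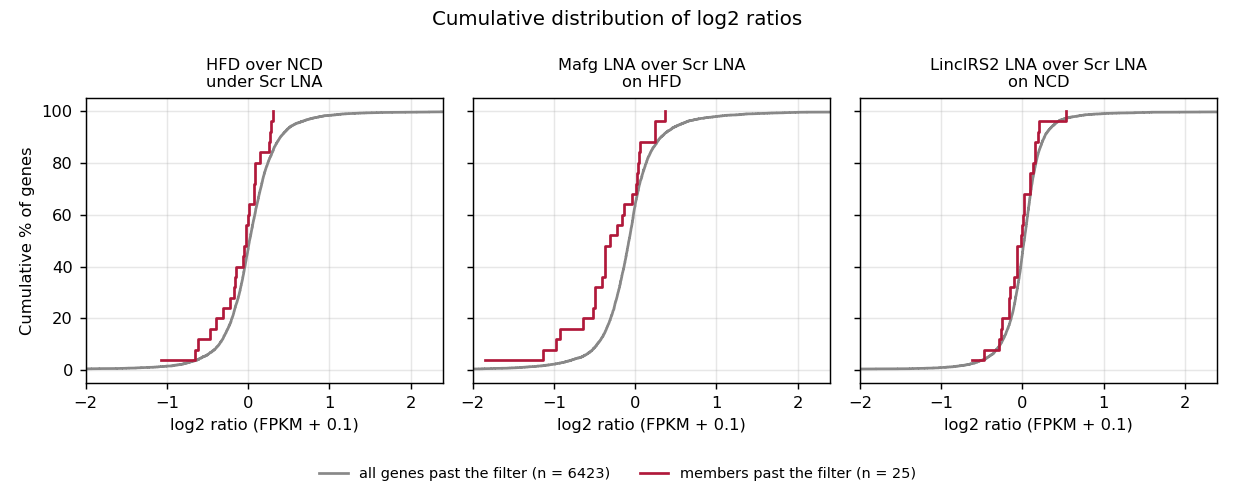
Cumulative share (%) of genes by log2 ratio, for all 6423 genes past the filter (grey) and the 25 members (red). The red line lies left of the grey line over its lower part with Mafg LNA, where the medians were -0.31 and -0.08, and both lines run close together with LincIRS2 LNA, where they were -0.02 and 0.02.

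With LincIRS2 LNA on NCD, 1 member, Plg, was lower past the fold (1.56 to 0.980 FPKM), 4% of the 25, while 2.86% of all genes were lower and 2.44% higher. No member was higher. The median log2 ratio was -0.02 for the members and 0.02 for all genes, and 20 of the 25 members lay within 0.25 of 0. The quartiles of all genes, -0.10 and 0.13, also lay in that band. Hc was closest to the fold on the upper side with 0.54 (1.29 to 1.93 FPKM). F8 had a ratio of -0.47, C1ra of -0.29 (92.7 to 75.9 FPKM), Mbl2 of -0.26 (35.2 to 29.5 FPKM) and Cpb2 of -0.25. With a pseudocount of 1 FPKM the ratio of Plg was -0.37, and no member passed the fold.

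The strand of the features limits these values. Libraries were strand-specific, yet the tables give no strand, and the strand inferred from the numbering of the features was opposite to that of the gene for 14 of the 25 members and for 59.8% of all genes past the filter. For 9 members, features on both strands had a mean of at least 1 FPKM. In Serpind1, C1ra, Proc and Mbl2 the ratio between the strands was nearly the same in all groups. For Serpind1 the opposite feature stood at 5.28, 5.27, 5.30 and 5.24 times the own feature, and for C1ra at 12.7, 12.9, 12.5 and 13 times. In C3 and C9 it was not. The main C3 feature was at 64.7 and 58.7 FPKM in Scr LNA HFD and Mafg LNA HFD (-0.14), whereas its own-strand feature was at 6.60 and 1.26 FPKM (-2.30). The main C9 feature was at 5.35 and 5.41 FPKM (0.02), whereas its own-strand feature was at 1.53 and 0.270 FPKM (-2.14). On own-strand features alone, 17 members passed the filter, and with Mafg LNA 6 were lower (C3, C9, Hc, Masp2, Plg and Serpinc1) with a median of -0.37, beside 8.97% of 2944 genes lower and a median of -0.11. With diet, the own-strand features of C6 (-1.07), C1ra (-0.62) and C9 (-0.78) were lower and that of C3 (0.59) was higher, beside 6.35% and 6.11% of these genes. F8 and C8a had no own-strand feature past the filter, and the C4bp feature was nearest to a retained-intron transcript.

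**Figure D4:**
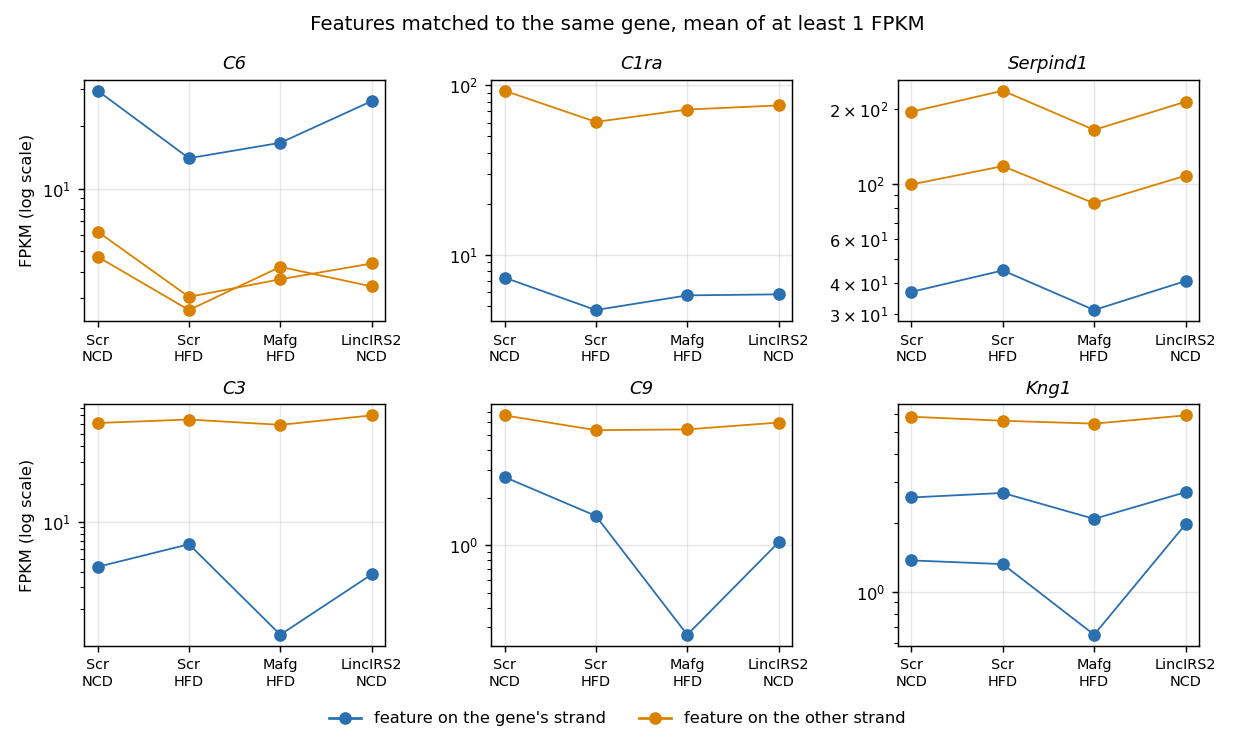
FPKM (log axes, scaled per gene) of every feature with a mean of at least 1 FPKM for 6 members in the 4 groups, coloured by the inferred strand. The features of Serpind1 and C1ra run in parallel, and the own-strand features of C3 and C9 stand at 1.26 and 0.270 FPKM in Mafg LNA HFD, while the other features stand at 58.7 and 5.41 FPKM.

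The 13 members under the filter were C1s1, Masp1 and Mbl1 of the activation steps, C8b and C8g, Cfp and Cfi, F2, F5, F10, Klkb1, Proz and Serpinf2. Their mean values lay under 1 FPKM and reached 0.933 for C1s1 and 0.771 for Klkb1, and 11 of the 13 were features on the gene's own strand. F2, the prothrombin gene, had a mean of 0.111 FPKM, although the liver is the source of plasma prothrombin. No ratio is read from these members.

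Genes of the same cascades outside the 40 were taken from fixed lists. Of all genes, 4.95% were higher and 4.69% lower with diet, 4.84% and 6.46% with Mafg LNA, and 2.44% and 2.86% with LincIRS2 LNA. Of 23 other complement genes, 15 passed the filter. The diet comparison had 2 higher and 4 lower, Mafg LNA 3 higher and 0 lower, and LincIRS2 LNA 0 higher and 5 lower. With diet and with LincIRS2 LNA the lower ones included C1qa, C1qb and C1qc. These encode the chains of C1q, which in the liver are made by macrophages. The 3 higher ones with Mafg LNA were C1qb (0.65), C1qc (0.59) and Cfd (1.98, 0.816 to 3.51 FPKM). C1qa had a Mafg ratio of 0.40. C1qa was at 10.4, 5.99, 7.93 and 5.6 FPKM, so Scr LNA NCD was highest. Vtn, which encodes vitronectin, a plasma inhibitor of the terminal complex, was at 437 and 321 FPKM with Scr and Mafg LNA on HFD (-0.45),, while Clu, which encodes another, clusterin, had a ratio of -0.04. Of 23 other coagulation genes 10 passed the filter, 0 higher and 2 lower for diet, 1 higher and 1 lower for Mafg LNA and 0 in either direction for LincIRS2 LNA. The fibrinogen chains Fga, Fgb and Fgg had diet ratios of -0.40, -0.60 and -0.39 and Mafg ratios of -0.35, -0.33 and -0.39. Fgg stood at 1300, 990, 758 and 1600 FPKM in the 4 groups. Mcfd2, whose product carries factors V and VIII out of the endoplasmic reticulum, was at 25.6 and 16.8 FPKM with Scr and Mafg LNA (-0.61). Lman1, whose product acts with it, was at 1.84 and 1.93 FPKM (0.06). Among 12 regulators of hepatocyte and acute-phase genes, 8 passed the filter. With diet 2 of them were higher, Cebpa (0.572 to 1.54 FPKM, a ratio of 1.29) and Nr1i3 (12.7 to 21.3 FPKM, 0.75), and none was lower, and with either targeting LNA 0 passed the fold. Hnf4a was at 7.61, 7.43, 6.26 and 7.06 FPKM.

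Markers of other cells differed between the groups as well, and their part in the members' values was not tested. In bulk tissue, fewer cells of a type and less RNA per cell cannot be told apart. The 10 Kupffer cell and macrophage markers past the filter, of 12, had median log2 ratios of -0.66, 0.62 and -0.79 for diet, Mafg LNA and LincIRS2 LNA, and the summed FPKM of the list was 54.5, 33.3, 48.0 and 30.1 in the 4 groups. The 3 neutrophil markers past the filter, of 6, had medians of -3.11, 1.86 and -3.26. With LincIRS2 LNA they did not move together, with S100a8 at -3.26, S100a9 at -3.52 and Lcn2 at 0.94. The 4 erythroid markers past the filter, of 5, were all lower with Mafg LNA, with a median of -1.18 and summed FPKM of 1950 in Scr LNA HFD and 901 in Mafg LNA HFD. Endothelial markers, 8 of 10 past the filter, had a Mafg median of -0.32, which stands beside the ratio of F8. Their ratios ran from -0.73 for Kdr to 0.34 for Lyve1, with Pecam1 at 0.12, and any link to F8 was not tested. Stab1 and Clec4g of that list were at or near 0 in every group. Stellate markers, 4 of 10 past the filter, had medians of 0.14, -0.27 and -0.01, and Reln and Col3a1 were listed at 0. The 11 hepatocyte markers past the filter had medians of 0.00, -0.06 and 0.02, and without Alb, left out after its values were seen, 0.01, -0.12 and 0.02. With Mafg LNA 1 hepatocyte marker was lower past the fold, Apoa1 (-0.76), and 1 was higher, Serpina1a (1.95, 0.502 to 2.22 FPKM). Without Alb, 6 of 10 had ratios below 0, among them Hpd (-0.46), Apob (-0.45) and Apoa2 (-0.43). The summed FPKM of the list was 11100 with Scr LNA and 9180 with Mafg LNA on HFD. Of the cholangiocyte list 1 of 5 passed, Spp1, with 0.31, 0.73 and 0.28, and of the lymphocyte list 0 of 7.

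Promoters are shown for members on which the comparisons turn, C6, C8a and C1ra for diet and Hc and Serpinc1 for Mafg LNA, because small MAF proteins such as MAFG act through DNA elements. The sequences are from RefSeq (GRCm38.p6) and cover 250 bases before to 50 bases after the annotated start, 5′ to 3′ on the strand of the gene. Capitals mark matches on either strand to the MAF core TGCTGA, the C/EBP site TTGCNNAA, the HNF1 core GTTAAT, the HNF4 site CAAAGTCCA or the TATA box TATAAA. No matches overlapped in the sequences shown.
C6, chr15:4726960-4727259, plus strand: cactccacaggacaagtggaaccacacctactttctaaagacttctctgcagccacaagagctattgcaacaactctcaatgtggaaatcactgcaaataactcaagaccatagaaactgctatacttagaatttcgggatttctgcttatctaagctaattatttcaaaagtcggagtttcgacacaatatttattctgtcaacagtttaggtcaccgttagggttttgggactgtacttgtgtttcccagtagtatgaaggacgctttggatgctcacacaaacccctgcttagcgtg
C8a, chr4:104876349-104876648, minus strand: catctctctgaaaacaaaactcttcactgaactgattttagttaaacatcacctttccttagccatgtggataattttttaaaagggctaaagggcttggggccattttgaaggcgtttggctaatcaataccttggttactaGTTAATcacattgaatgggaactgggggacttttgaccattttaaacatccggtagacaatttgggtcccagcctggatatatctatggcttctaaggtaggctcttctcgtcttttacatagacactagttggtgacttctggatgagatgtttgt
C1ra, chr6:124512371-124512670, plus strand: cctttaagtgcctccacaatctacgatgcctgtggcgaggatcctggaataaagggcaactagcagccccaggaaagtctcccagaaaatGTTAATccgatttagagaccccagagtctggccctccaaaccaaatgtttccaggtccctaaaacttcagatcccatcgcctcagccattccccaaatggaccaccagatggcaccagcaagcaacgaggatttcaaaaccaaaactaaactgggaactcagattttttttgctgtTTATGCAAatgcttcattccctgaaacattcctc
Hc, chr2:35061363-35061662, minus strand: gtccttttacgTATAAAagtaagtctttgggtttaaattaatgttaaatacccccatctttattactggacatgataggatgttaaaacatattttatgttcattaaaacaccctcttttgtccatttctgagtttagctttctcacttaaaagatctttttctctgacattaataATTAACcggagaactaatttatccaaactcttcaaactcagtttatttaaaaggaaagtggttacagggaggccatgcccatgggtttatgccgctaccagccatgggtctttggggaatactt
Serpinc1, chr1:160978333-160978632, plus strand: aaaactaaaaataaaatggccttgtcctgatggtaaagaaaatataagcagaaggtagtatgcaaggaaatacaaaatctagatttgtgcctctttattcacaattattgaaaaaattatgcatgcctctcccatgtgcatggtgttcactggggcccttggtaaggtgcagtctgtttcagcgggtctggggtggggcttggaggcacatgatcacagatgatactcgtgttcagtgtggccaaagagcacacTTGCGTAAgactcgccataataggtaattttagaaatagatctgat
C8a, C1ra and Hc each held 1 match to the HNF1 core, and C1ra and Serpinc1 each 1 match to the C/EBP site. Hc also held 1 match to the letters of the TATA box, at bases -239 to -234 from the start. C6 held no match, and neither did the windows of F8 and Masp2. The MAF core was in none of the 7 windows of members past the fold that matched an entry. Over the 31 members with a promoter entry, the MAF core was found in 5 (16.1%), C3, C8b, F2, Mbl1 and Serpind1, and in 19.5% of all 32851 promoter windows. The C/EBP site was found in 9 members (29%), and in 10.8% of all windows, and the HNF1 core in 9 members (29%), and in 7.1% of all windows. The TATA box was in 3 members (9.68%) and 13.6% of all windows, and the HNF4 site in 0 members and 0.475% of all windows. A match of letters is a description and not a bound site.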

How the data were processed

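Liver total RNA was depleted of rRNA and made into strand-specific libraries. According to the methods, the authors used flexbar for adapters, Bowtie2 2.2.9 against rRNA, STAR 2.6.0c for alignment to mm10 (GRCm38), and Cufflinks 2.2.1 with Cuffmerge and Cuffdiff for assembly and comparison. The 3 deposited tables hold 69905 assembled features with 1 FPKM value per group, which the authors pooled over the 4 livers of a group. Values of shared groups were identical between tables. The deposited fold changes, test statistics, p and q values of the authors' own comparisons were not used. The depth is unknown, since no counts were used, and 1 value per group allowed no test, interval or replicate check here.

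Features were joined to genes by the symbol in the tables, and 8357 features without a match were left out. The feature of highest mean FPKM stood for a gene and is not the total of the gene. Genes with a mean of at least 1 FPKM were kept, 0.1 FPKM was added, and ratios past 1.5-fold were counted. Within a chromosome, features were numbered by increasing position on the plus strand and then on the minus strand, and this order gave the inferred strand. The counting was tested on simulated data. All members were accounted for, with the values of every member past the fold, of the 12 of highest mean and of at least 1 member of each role that had a value past the filter. The members and lists were chosen with earlier results of these data known. Alternatives were other pseudocounts, filters, folds, row choices and a centring. Gene coordinates are those of the tables (GRCm38). LNA sequences were searched in GENCODE M21 transcripts. Python 3.11.15, pandas 2.3.3, numpy 2.4.6 and matplotlib 3.10.9 were used. Sex is given by the study's methods only.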

Additional observations from a re-analysis of the deposited data

How the results depend on the processing

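No paired analysis was possible because each group had only 1 pooled value, and for the same reason no replicate could be left out. The share of all genes was not taken at folds other than 1.5, so member counts at those folds are not read as results. With diet, 1 member was higher and 5 lower at a filter of 0.1 FPKM, 1 higher and 6 lower without a filter, 1 higher on own-strand features, 5 lower past 0.32 on the log2 scale and 1 lower past 2-fold, beside 0 higher and 3 lower in the report. With Mafg LNA, 1 member was higher at 0.1 FPKM (median -0.19), 3 were higher without a filter (median -0.09), 2 were lower at 5 FPKM (median -0.19), 1 was higher and 12 lower past 0.32 on the log2 scale, and 2 were lower past 2-fold, beside 0 higher, 5 lower and a median of -0.31. With LincIRS2 LNA, 4 members were lower at 0.1 FPKM, 1 was higher and 5 lower without a filter, 0 were lower at 5 FPKM, with a pseudocount of 1 or past 2-fold, 2 were lower on own-strand features, and 1 was higher and 2 lower past 0.32 on the log2 scale, beside 0 higher and 1 lower. At 0.1 FPKM, 7.58% of all genes were higher and 8.01% lower with diet, and 11.5% and 8.41% with Mafg LNA. With LincIRS2 LNA the shares were 5.42% and 6.68%. Without a filter they were 2.86% and 2.93%, 4.26% and 2.99%, and 2.23% and 2.62%, in the same order. At 5 FPKM 8.48% were lower with Mafg LNA and 2.28% with LincIRS2 LNA, and 1.59% with LincIRS2 LNA at a pseudocount of 1. On own-strand features 6.11% were higher with diet and 4.42% lower with LincIRS2 LNA. The other member counts stayed within 1.5 times and the other member medians within 0.1 of those in the report. Single-member ratios under alternatives were taken only for the 9 pairs of member and comparison past the fold. Of these 43 ratios, 37 moved by less than 0.1, 6 by more, all with another pseudocount, and none turned its sign. Ratios past the fold had little room to turn, so the other members are not covered by this count. Among the 11 members with 2 or more features past the filter, the features shared their sign in 7 for diet. They did so in 8 for either targeting LNA. Pooled FPKM without counts give no error for any value.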
